A study of Sus scrofa with 12 samples.

Results

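The endometrium of sows fed a high-fiber diet with N-carbamylglutamate (NCG), the group H + N, was compared with that of sows on the same diet without it, the group H − N. The libraries were chosen by their deposited titles, which give 3 for H + N and 3 for H − N, 6 of the 12 libraries of the series. Both groups were Landrace × Yorkshire sows that received 7.46% crude fiber through the 114 days of gestation, and the H + N diet contained 0.05% NCG where the H − N diet, per the study's feed formula, contained zeolite powder. The formula also lists a slightly higher measured calcium for H − N than for H + N, which cannot be told apart from NCG here. The other 6 libraries came from sows on 3.73% crude fiber, 3 with NCG (L + N) and 3 without (L − N). The comparison addresses what NCG does to the endometrial transcriptome when the diet is already rich in fiber. The labels give no more on the animals, so the p-values measure the spread between these libraries.

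NCG is a stable analog of N-acetylglutamate, the cofactor that activates carbamoyl phosphate synthetase 1 and through it the synthesis of citrulline and arginine, mainly in gut and liver. Arginine is a precursor of nitric oxide and polyamines and acts on mTORC1, a kinase complex that couples amino acid supply to growth. The endometrium, the lining of the uterus, consists of luminal and glandular epithelium over a stroma with vessels and immune cells, and its cells divide and are replaced over the reproductive cycle.

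The total counts of the 6 libraries ranged from 14369781 to 18549636, and 15351 of 20674 genes had enough reads to be tested. Levels are given in CPM, the reads of a gene as parts of a library total that was scaled by TMM (trimmed mean of M values). The tissue label was set beside markers: 14 of 14 matched genes for luminal and glandular epithelium, 12 of 12 for stromal fibroblasts and 10 of 10 for endothelium had counts in every one of the 6 libraries. So did all 9 for smooth muscle, with MYH11 at 306 to 618 CPM and ACTA2 at 209 to 544 CPM, and all 11 for macrophages. Having counts therefore does not set the endometrium apart from other tissue. PAG2, PAG6, CYP19A1 and CDX2 of the trophoblast list were at 0 in all 6. Another 7 genes of that list had counts in every one of the 6. Among them, PAG1 stood at 29.3 to 34.4 CPM in H + N and 23.8 to 24.2 CPM in H − N, and GATA2 at 116 to 204 CPM. The symbol PAG1 alone does not show which protein is encoded, so it is not read here as a sign of placenta. Mitochondrially encoded genes held 2.84% to 3.91% of the counts. On the first principal component of the 6 libraries, which carried 36.8% of the variance, H − N replicate 3 lay at 66.5 and the others between −27.9 and 17.9. For results that rest on that library, values without it are given beside them.

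No gene was called between H + N and H − N by edgeR, whereas DESeq2, the tool of the study, called a small number at the same thresholds. With edgeR's quasi-likelihood test, 0 of 15351 genes had an adjusted p-value under 0.05 (0% called, with or without a limit on the fold change), and the smallest adjusted p was 0.451. An unadjusted p under 0.05 was reached by 1331 genes (8.67%), 821 with a higher level in H + N (5.35%) and 510 with a lower one (3.32%). These shares are the ones to set beside the counts at that threshold in the lists and terms below. An absolute log2 fold change above 1 was seen for 318 genes in the higher direction (2.07%) and 329 in the lower (2.14%). The count of 1331 was 816 without H + N replicate 1 and 869 without H − N replicate 1. The 3 H + N libraries all lay above the 3 H − N libraries for 1200 genes (7.82%) and below them for 788 (5.13%). DESeq2 called 25 genes on the 12 libraries, 21 higher and 4 lower, and 42 on the 6 high-fiber libraries alone, with 18 in both sets. The median log2 fold change over all genes tested was 0.01.

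**Figure D1:**
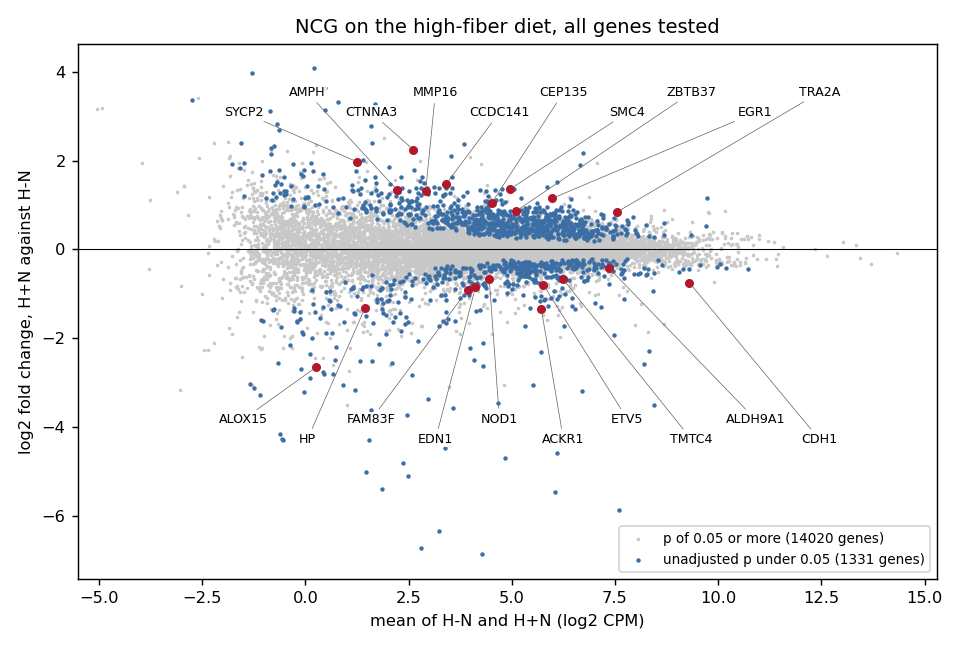
Each point is a gene tested, with the mean level of the H − N and H + N libraries (log2 CPM) on the x axis and the log2 fold change of H + N against H − N on the y axis. Blue points are the 1331 genes with an unadjusted p under 0.05 and red points, labelled, the 10 genes with the smallest p in each direction (CEP135 at 1.05 and EDN1 at −0.86 are among them). The gene with no count in either group is not drawn.

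Of the 10 genes with the smallest p among those higher in H + N, 3 belong to the apparatus of cell division or meiosis. CEP135 (gene identifier 100627819, chromosome 8, 55250902 to 55323396 of Sscrofa11.1) encodes a centriole protein and stood at 35.4, 32.97 and 23.9 CPM in H + N and 12.95, 14.6 and 17.1 CPM in H − N. All H + N libraries exceeded all H − N libraries, and the log2 fold change was 1.05 ± 0.18 (SE). SMC4 (chromosome 13, 100078149 to 100120907), a condensin subunit that compacts mitotic chromosomes, stood at 49.5, 36.1 and 48.6 CPM in H + N and 11.3, 19.6 and 21.5 CPM in H − N, a log2 fold change of 1.36 ± 0.26 (SE). The SMC4 gene overlaps TRIM59 on the opposite strand, and the strand used in counting is not given in the sources used here. SYCP2, a protein of the synaptonemal complex that joins chromosomes in meiosis, stood at 3.89, 5.32 and 2.08 CPM in H + N and 0.984, 1.04 and 0.828 CPM in H − N, and the log2 fold change was 1.98 ± 0.40 (SE). H + N replicate 3 was the lowest of its group for SYCP2 and still lay above the H − N libraries.

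Others of these 10 genes encode regulators of transcription and splicing and proteins of cell shape and contact. EGR1, an immediate early transcription factor (chromosome 2, 140440829 to 140445302), stood at 98.6, 91.4 and 69.5 CPM in H + N and 39.3, 44.5 and 33.5 CPM in H − N, and the log2 fold change was 1.15 ± 0.24 (SE). TRA2A, a splicing factor, stood at 276, 249 and 197 CPM in H + N and 100.2, 143 and 159.8 CPM in H − N (log2 fold change 0.84), and the zinc finger gene ZBTB37 at 52.1, 47.97 and 33.6 CPM in H + N and 22.4, 24.5 and 26.4 CPM in H − N (log2 fold change 0.87). The groups did not overlap for these genes. MMP16, a membrane-bound matrix metalloproteinase, stood at 13.1, 6.95 and 12.2 CPM in H + N and 3.94, 4.09 and 4.90 CPM in H − N (log2 fold change 1.32), and CTNNA3, an alpha catenin of cell contacts, at 12.6, 9.02 and 8.64 CPM in H + N and 0.881, 2.70 and 2.83 CPM in H − N (log2 fold change 2.25). LRRTM3 lies on the opposite strand within the CTNNA3 gene. AMPH, the amphiphysin of membrane curvature, had a log2 fold change of 1.34 and the coiled-coil gene CCDC141 one of 1.47, both without overlap between the groups. The adjusted p of edgeR's test was 0.451 for all 10 genes. With each of the 6 libraries left out their fold changes kept their direction, which follows from groups without overlap and adds no evidence.

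The 10 genes with the smallest p among those lower in H + N included a vasoconstrictor, a chemokine receptor and an epithelial adhesion molecule. EDN1 (gene identifier 396915, chromosome 7, 8752018 to 8758354) encodes endothelin 1, a peptide that constricts vessels, and stood at 13.2, 12.2 and 11.7 CPM in H + N and 23.2, 22.4 and 21.6 CPM in H − N. The libraries within each group were close to each other, and the log2 fold change was −0.86 (standard error 0.16). ACKR1, a chemokine-binding receptor of venular endothelium and red cells, stood at 38.9, 28.4 and 21.6 CPM in H + N and 63.9, 64.7 and 97.8 CPM in H − N, a log2 fold change of −1.35 ± 0.31 (SE). CDH1, the cadherin that joins epithelial cells (chromosome 6, 18075487 to 18155986), stood at 429, 515 and 469 CPM in H + N and 726, 612 and 1038 CPM in H − N, a log2 fold change of −0.75 ± 0.17 (SE). H − N replicate 3 had the highest level of both, and without it the log2 fold changes were −1.12 for ACKR1 and −0.51 for CDH1. ETV5, a transcription factor downstream of growth factor signals, had its highest level in H − N replicate 1 (92.1 CPM, against 55.1 and 60.3 in the rest of H − N and 33.95 to 42.8 in H + N), with a log2 fold change of −0.80.

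The remaining 6 had roles in inflammation, metabolism and protein modification. HP, the hemoglobin-binding acute phase protein haptoglobin, stood at 1.45, 1.63 and 1.59 CPM in H + N and 3.63, 4.79 and 3.24 CPM in H − N, a low level with a log2 fold change of −1.31. ALOX15, a lipoxygenase of arachidonic and linoleic acid, stood at 0.461, 0.380 and 0.123 CPM in H + N and 0.881, 1.80 and 3.52 CPM in H − N (log2 fold change −2.65), and NOD1, an intracellular sensor of bacterial peptidoglycan, at 15.9, 17.6 and 17.2 CPM in H + N and 25.3, 23.4 and 32.1 CPM in H − N (log2 fold change −0.67). The groups did not overlap for HP, ALOX15 or NOD1. ALOX15 was below 1 CPM in every H + N library, so its fold change is imprecise. Without H − N replicate 3 it was −2.03 on the log2 scale. ALDH9A1, an aldehyde dehydrogenase, had the smallest difference of the 20 genes, from 167 to 205 CPM in H − N to 136 to 146 CPM in H + N (log2 fold change −0.43). TMTC4, a mannosyltransferase acting on cadherins, had a log2 fold change of −0.66 and FAM83F one of −0.91, and the TMTC4 gene overlaps LOC102164050 on the opposite strand. The adjusted p was again 0.451 for each of the 10 by edgeR's test.

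Genes of mitosis were higher in H + N as a group, while none of them passed edgeR's test. DESeq2 called 5 of them on the 12 libraries (CEP135, SMC4, HMMR, KIF20B and SGO2), where it called 25 over all genes. On the 6 high-fiber libraries it called 8, with CENPF, DLGAP5 and SMC2 added, where it called 42 over all genes. Of 86 genes of the kinetochore, spindle, condensin and centrosome, 83 were higher in H + N, where 51% of all genes were. The median log2 fold change was 0.51 beside 0.01 over all genes. This list and the others were chosen with earlier results of these data known, so their shares are no independent evidence. An unadjusted p under 0.05 was reached by 31 of the 86 in the higher direction (5.35% of all genes) and by 0 in the lower. For 51 of them the H + N libraries all exceeded the H − N libraries (7.82% of all genes). HMMR, a spindle and hyaluronan-binding protein, stood at 9.62, 8.42 and 10.97 CPM in H + N and 2.38, 3.12 and 2.90 CPM in H − N, a log2 fold change of 1.79 ± 0.41 (SE). KIF20B, a kinesin of cytokinesis, stood at 11.3, 9.13 and 11.7 CPM in H + N and 2.38, 3.54 and 4.48 CPM in H − N, a log2 fold change of 1.63 ± 0.38 (SE). The groups did not overlap for these genes. MKI67, the antigen used to count dividing cells, stood at 85.03, 99.7 and 126 CPM in H + N and 60.4, 60.1 and 76.7 CPM in H − N, a smaller log2 fold change of 0.65 ± 0.33 (SE), with an adjusted p of 0.603 by edgeR's test. HMMR overlaps NUDCD2 on the opposite strand. In bulk tissue, fewer cells of a type and less RNA per cell cannot be told apart.

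The mitosis median did not rest on 1 library. The number of its genes with an unadjusted p under 0.05 varied with the library left out. With each high-fiber library left out, the median log2 fold change ranged from 0.38 without H + N replicate 3 to 0.57 without H + N replicate 1, and 81 to 84 of the 86 genes were higher. The count with an unadjusted p under 0.05 was as low as 13, when H − N replicate 1 was left out, and 15 when H + N replicate 3 was, and it was 31 when H + N replicate 2 was. Over all genes, the count in the higher direction was 444 of 15346 without H − N replicate 1 and 887 of 15347 without H + N replicate 3. The median gene length of the list was 3734 bp, close to the 3730 bp of all genes tested.

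**Figure D2:**
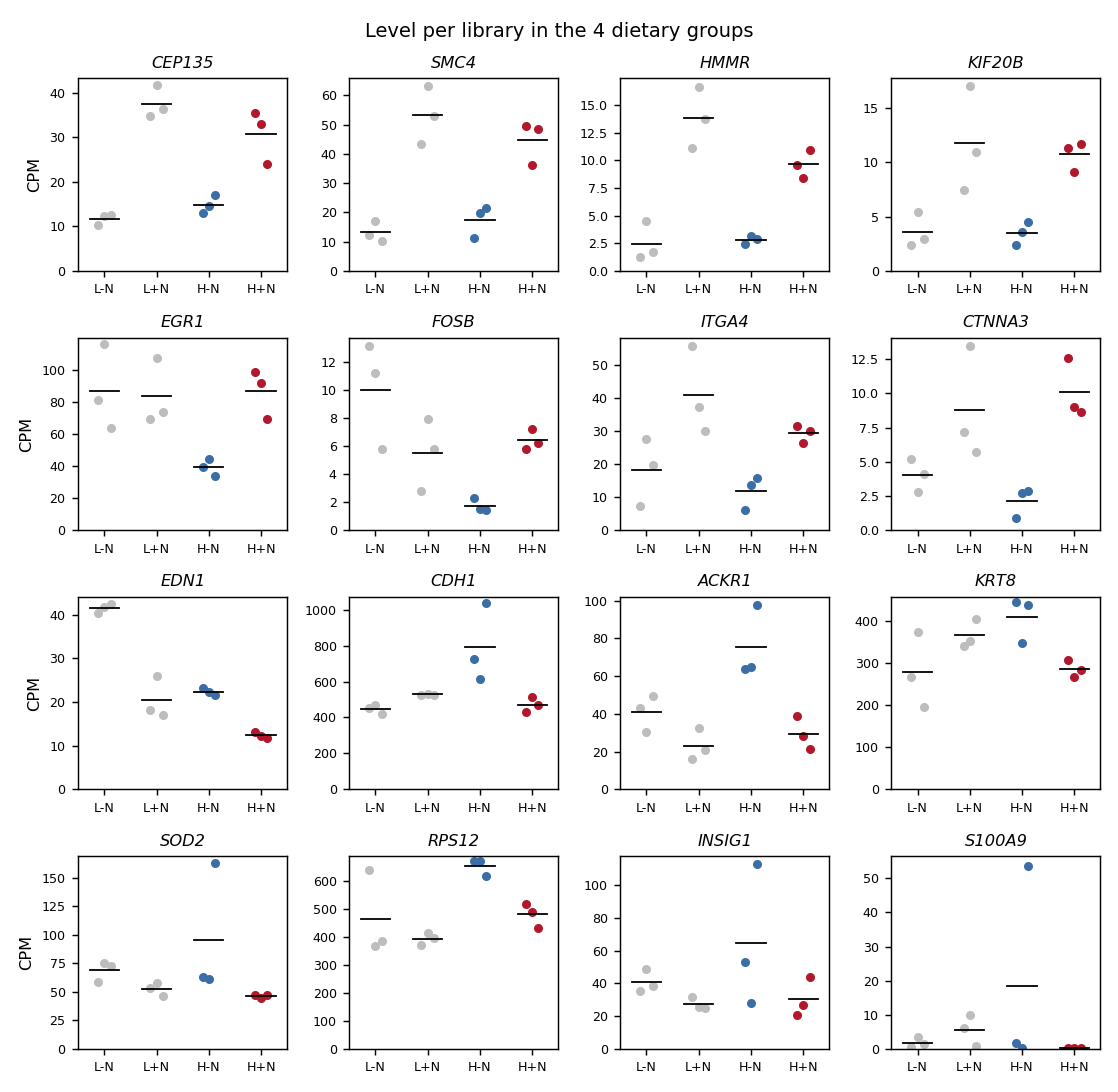
Level in CPM (y axis, from 0) of 16 genes in each library of L − N, L + N (gray), H − N (blue) and H + N (red), with points for libraries and lines for group means. CEP135, SMC4, HMMR, KIF20B, EGR1, FOSB, ITGA4 and CTNNA3 were higher in each H + N library than in each H − N library, EDN1, CDH1, ACKR1, KRT8, SOD2 and RPS12 lower, and the ranges of INSIG1 and S100A9 overlapped.

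DNA replication genes showed the same direction. Of 61 genes of replication forks, nucleotide supply and repair of breaks, 56 were higher in H + N, with a median log2 fold change of 0.48, and 20 had an unadjusted p under 0.05 in that direction (5.35% of all genes) and 0 in the other (3.32%). ATAD2, a chromatin ATPase, stood at 24.8, 24.7 and 36.3 CPM in H + N and 8.86, 17.8 and 14.2 CPM in H − N (log2 fold change 1.07), and DUT, which removes dUTP from the nucleotide pool, at 30.3, 32.5 and 37.95 CPM in H + N and 24.6, 24.8 and 22.00 CPM in H − N (log2 fold change 0.50). WDHD1, which links helicase and polymerase, stood at 24.1, 19.6 and 27.4 CPM in H + N and 13.9, 16.4 and 13.1 CPM in H − N (log2 fold change 0.71). The H + N libraries exceeded the H − N libraries for ATAD2, DUT and WDHD1. The median of the list was 0.23 without H + N replicate 3 and 0.55 without H + N replicate 1, and the count with an unadjusted p under 0.05 was 9 when H + N replicate 3 was left out, 10 when H − N replicate 3 was and 11 when H − N replicate 1 was.

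Regulators of the cell cycle were less uniform. Of 39 cyclins, kinases, inhibitors and E2F and MYB factors, 31 were higher, with a median log2 fold change of 0.30, and 7 had an unadjusted p under 0.05 in that direction and 0 in the other. RB1, the repressor of E2F, stood at 47.7, 48.8 and 53.2 CPM in H + N and 32.02, 39.5 and 37.4 CPM in H − N (log2 fold change 0.46), and CDC25C, the phosphatase that opens mitosis, at 7.51, 9.51 and 8.95 CPM in H + N and 5.13, 4.37 and 3.52 CPM in H − N (log2 fold change 0.99). E2F8, a repressor of E2F targets, had a log2 fold change of 1.08 and MYBL1 one of 0.79, whereas MYB stood at 12.1, 16.9 and 11.5 CPM in H + N and 11.4, 12.4 and 17.5 CPM in H − N (log2 fold change −0.02). MYB overlapped between the groups and RB1, CDC25C, E2F8 and MYBL1 did not. RB1 overlaps LPAR6 on the opposite strand. The list median was 0.15 without H + N replicate 3, and the count of 7 was 3 both without that library and without H − N replicate 1.

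The deposited annotation, with its own members, gave smaller medians for the broad terms. The KEGG pathway Cell cycle had 118 genes tested, of which 85 were higher, with a median of 0.17, and 19 had an unadjusted p under 0.05 in the higher direction and 0 in the lower. Homologous recombination had 30 of 39 genes higher (median 0.20) and the Fanconi anemia pathway 34 of 48 (median 0.22), with 14 genes of the latter at an unadjusted p under 0.05 and higher and 2 lower. Without H − N replicate 3 the median was 0.04 for Homologous recombination and 0.11 for the Fanconi anemia pathway, and without H + N replicate 3 it was 0.10 for Cell cycle. Among biological processes, cell division had 48 of 68 genes higher (median 0.16), chromosome segregation 40 of 54 (0.16), mitotic spindle organization 22 of 28 (0.19), DNA replication 53 of 76 (0.09) and DNA repair 97 of 156 (0.08). The processes with the highest medians of all were narrower, and some lay outside cell division. Sensory perception of smell had 10 of 16 genes higher (median 0.42, and 0.15 without H + N replicate 1). The gamma-aminobutyric acid signaling pathway had 11 of 12 (median 0.41, and 0.33 without H + N replicate 2). Of those of cell division, metaphase plate congression had 10 of 10 genes higher (median 0.58). DNA replication initiation had 15 of 18 (median 0.51) and sister chromatid cohesion 12 of 15 (median 0.42). Cohesion holds the copies of a chromosome together until they part, and its genes included SMC3, a ring subunit, which stood at 103, 78.6 and 95.5 CPM in H + N and 33.7, 54.6 and 60.7 CPM in H − N (log2 fold change 0.90). SMC5, of the related repair complex, had a log2 fold change of 0.85, ESCO1, which acetylates cohesin, one of 0.70, and STAG1, a cohesin subunit whose gene overlaps SLC35G2, one of 0.42. The groups did not overlap for SMC3, SMC5, ESCO1 or STAG1, and all 4 had their lowest level in H − N replicate 1. For SMC3, the log2 fold change without that library was 0.68. Oocyte meiosis, which shares mitotic genes, had 72 of 103 higher (median 0.10), and p53 signaling 39 of 67 (median 0.13, and 0.05 without H + N replicate 3). DNA replication initiation had a median of 0.24 without H + N replicate 3, and sister chromatid cohesion one of 0.27 without H − N replicate 1.

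Immediate early and stress genes were mostly higher in H + N. The list joins immediate early genes, which respond within minutes to growth factors and to stress, with stress genes such as those of heat shock. Of 22 genes of both kinds, 20 were higher, with a median log2 fold change of 0.34. An unadjusted p under 0.05 was reached by 6 in that direction (5.35% of all genes) and by 0 in the other. DESeq2 called EGR1, EGR3 and FOSB, both among its 25 genes on the 12 libraries and among its 42 on the 6 high-fiber libraries. FOSB, a subunit of the AP-1 factor, stood at 5.80, 7.22 and 6.25 CPM in H + N and 2.28, 1.53 and 1.45 CPM in H − N, a log2 fold change of 1.86 ± 0.42 (SE). EGR3 stood at 4.75, 11.7 and 6.07 CPM in H + N and 2.18, 2.36 and 2.69 CPM in H − N (log2 fold change 1.64) and EGR2 at 9.49, 9.29 and 21.9 CPM in H + N and 5.54, 5.83 and 4.35 CPM in H − N (log2 fold change 1.37). The groups did not overlap for these genes, and 1 H + N library was far above the rest of its group, replicate 2 for EGR3 and replicate 3 for EGR2. Without those libraries the log2 fold changes were 1.16 for EGR3 and 0.84 for EGR2. EGR2 overlaps ADO on the opposite strand. The list median ranged from 0.22 without H − N replicate 1 to 0.62 without H − N replicate 3.

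Gene length moved with the comparison. When the genes tested were divided into quintiles by the length in the deposited table, the median log2 fold change was −0.07 for the shortest quintile (204 to 1927 bp), −0.03, 0.00 and 0.04 for the quintiles between and 0.11 for the longest (6836 to 104486 bp). In the shortest quintile 38.4% of the genes were higher in H + N, and in the longest 64.9%. Genes with an unadjusted p under 0.05 had a median length of 6455 bp where higher and 2975 bp where lower. Single libraries also weighed on those genes. H − N replicate 1 was the lowest of the 6 libraries for 563 of the 821 higher genes (68.6%), H + N replicate 1 the highest for 448 of them (54.6%), and H − N replicate 3 the highest for 309 of the 510 lower genes (60.6%). The part of length and of these libraries in the differences was not tested beyond leaving out each library.

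**Figure D3:**
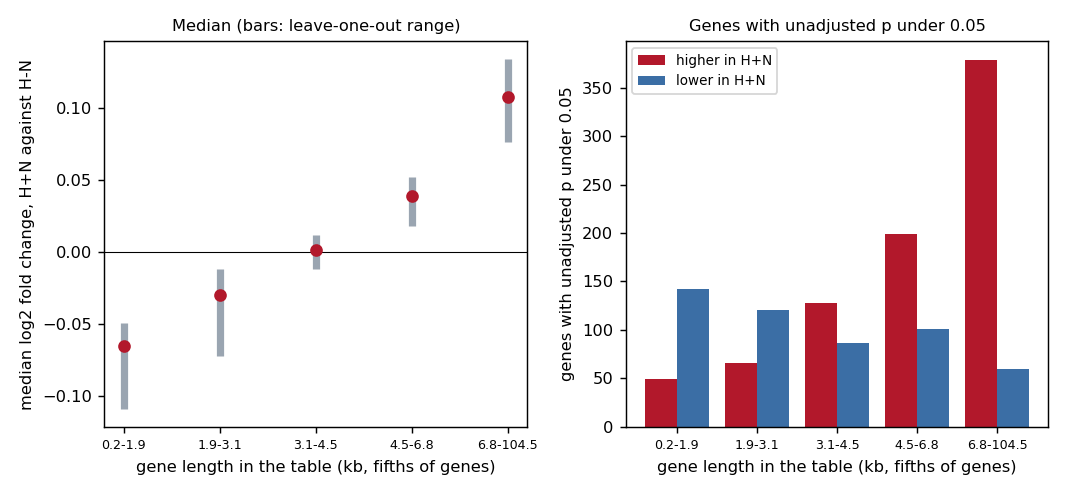
Left, median log2 fold change of H + N against H − N (points) for quintiles of the genes tested by gene length (x axis, kb), with bars for the range when each of the 6 libraries was left out. Right, number of genes in each quintile with an unadjusted p under 0.05, from 49 higher and 142 lower in the shortest to 379 higher and 60 lower in the longest.

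Epithelial markers were lower in H + N. All 14 genes of the luminal and glandular epithelium list were lower, with a median log2 fold change of −0.47, and 4 had an unadjusted p under 0.05 (3.32% of all genes in that direction). For 6 of them the H + N libraries all lay below the H − N libraries (5.13% of all genes). The summed level of the 14 was 1449, 1633 and 1515 CPM in H + N and 2222, 1844 and 2743 CPM in H − N, so that the groups did not overlap. EPCAM, an adhesion molecule of epithelia, stood at 202, 257 and 189 CPM in H + N and 304, 279 and 374 CPM in H − N (log2 fold change −0.56). KRT8, a keratin of simple epithelium, stood at 306, 266 and 284 CPM in H + N and 444, 348 and 439 CPM in H − N (log2 fold change −0.52), and KRT19, another keratin, had a log2 fold change of −0.46. Each of these was lower in every H + N library. Without H − N replicate 3 the list median was −0.36, with 14 of 14 genes lower, and the count of 4 was 1 without that library, 2 when H − N replicate 1 was left out and 7 when H − N replicate 2 was. The 12 markers of ciliated epithelium had a median of −0.11, and 3 were higher, but the median ran from −0.68 to 0.05 with each library left out. Of 12 markers of stromal fibroblasts 11 were higher, with a median of 0.23. Whether a different share of epithelium in the samples had a part in the results above was not tested.

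Markers of macrophages were higher in H + N. All 11 were higher, with a median log2 fold change of 0.32, and 2 had an unadjusted p under 0.05 (5.35% of all genes in that direction). Their summed level was 1413, 1437 and 1146 CPM in H + N and 985, 1058 and 733 CPM in H − N, without overlap. C1QB, a chain of complement C1q, stood at 325, 330.0 and 259 CPM in H + N and 196, 215 and 144 CPM in H − N (log2 fold change 0.72), and CD68, a lysosomal glycoprotein, at 108, 100.2 and 83.6 CPM in H + N and 46.9, 66.9 and 36.1 CPM in H − N (log2 fold change 0.96). C1QA and C1QC had log2 fold changes of 0.60 and 0.54, and the H + N libraries all exceeded the H − N libraries for the 4 genes (7.82% of all genes). With each library left out, 11 of 11 were higher, the median ranged from 0.19 to 0.52, and the count of 2 was 0 without any of H + N replicates 1 and 2 and H − N replicates 1 and 3. Of 14 markers of T and NK cells 13 were higher (median 0.28, and 0.12 without H + N replicate 3), of 10 of B and plasma cells 3 (median −0.17, and 0.38 without H − N replicate 3), and of 10 of endothelium 6 (median 0.05). Erythroid markers were tested for 3 genes, and HBB, hemoglobin beta, stood at 26.9, 284 and 206 CPM in H + N and 31.2, 53.9 and 30.6 CPM in H − N, so that H + N replicate 1 was the lowest of the 6 libraries and the others of its group above them.

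Most neutrophil, acute phase and interferon genes named here had their highest level in H − N replicate 3, HP being an exception. The 8 neutrophil markers summed to 12.5, 12.5 and 40.5 CPM in H + N and 39.5, 17.5 and 590.5 CPM in H − N, and S100A9, a calprotectin subunit, stood at 0.198, 0.109 and 0.368 CPM in H + N and 1.71, 0.208 and 53.7 CPM in H − N. LTF, the iron-binding lactoferrin, stood at 2.97, 3.53 and 9.93 CPM in H + N and 6.11, 3.81 and 382 CPM in H − N, with a log2 fold change of −4.57 and of 0.13 without H − N replicate 3. The level of that library set the direction for LTF. Of 25 genes of the acute phase and of inflammatory cytokines, 3 were higher in H + N, the median log2 fold change was −0.60 and 12 of those that were lower had an unadjusted p under 0.05. Without H − N replicate 3 the median was −0.08, with 12 of 25 higher and 1 lower gene at an unadjusted p under 0.05. HP belongs to this list, and its log2 fold change was −1.43 without the library.

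The direction of interferon-stimulated genes rested on the same library. Of 26 genes 24 were lower in H + N, with a median log2 fold change of −0.89, whereas without H − N replicate 3 the median was 0.54 and 23 were higher. OASL, an antiviral sensor, stood at 2.11, 1.25 and 0.797 CPM in H + N and 0.777, 0.347 and 41.9 CPM in H − N (log2 fold change −3.37, and 1.26 without that library). CXCL10, a chemokine for T cells whose gene overlaps ART3 on the opposite strand, stood at 44.6, 14.1 and 27.3 CPM in H + N and 39.1, 26.98 and 192 CPM in H − N (log2 fold change −1.59, and −0.21 without that library), and IRF7 at 9.23, 6.08 and 10.6 CPM in H + N and 8.96, 8.88 and 41.9 CPM in H − N (log2 fold change −1.20, and −0.05 without that library). The remaining H − N libraries lay within the H + N range for CXCL10 and IRF7 and below it for OASL. The annotated process negative regulation of viral genome replication, with 20 of 21 genes lower and a median of −0.55, had a median of 0.05 without the library. CFTR and VNN1, of epithelia, were also at their highest there. CFTR, the chloride channel, stood at 36.8, 31.8 and 38.1 CPM in H + N and 44.9, 34.9 and 273 CPM in H − N, and VNN1, a pantetheinase, at 13.2, 5.43 and 10.7 CPM in H + N and 21.7, 4.30 and 217 CPM in H − N.

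Genes of cholesterol synthesis were lower in H + N, to a degree that depended on H − N replicate 3. Of 23 genes 0 were higher, the median log2 fold change was −0.69, and 3 had an unadjusted p under 0.05. INSIG1, which restrains sterol production, stood at 20.5, 27.00 and 44.1 CPM in H + N and 53.01, 27.9 and 113 CPM in H − N (log2 fold change −1.08, and −0.41 without H − N replicate 3), and CYP51, a sterol demethylase, at 27.8, 24.9 and 53.2 CPM in H + N and 53.1, 29.8 and 118 CPM in H − N (log2 fold change −0.92, and −0.23 without it). H − N replicate 3 was the highest library for both and H − N replicate 2 lay within the H + N range, so that the groups overlapped. Without H − N replicate 3 the list median was −0.23 with 4 genes higher and 0 at an unadjusted p under 0.05, and without H + N replicate 3 it was −1.01 with 16 at an unadjusted p under 0.05. The summed level of the 23 genes was 605, 618 and 1191 CPM in H + N and 1272, 692 and 2047 CPM in H − N.

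Ribosomal protein genes were lower by a small amount. In the KEGG pathway Ribosome, 104 of 120 genes were lower in H + N, with a median log2 fold change of −0.24. An unadjusted p under 0.05 was reached by 6 of the 120, beside 5.35% of all genes higher and 3.32% lower. For 28 the H + N libraries all lay below the H − N libraries (5.13% of all genes). RPL8, a protein of the large subunit, stood at 502, 577 and 501 CPM in H + N and 831, 710.1 and 616 CPM in H − N (log2 fold change −0.45), and RPS12, of the small subunit, at 521, 491 and 434 CPM in H + N and 672, 674 and 618 CPM in H − N (log2 fold change −0.44). The H + N and H − N libraries did not overlap for RPL8, RPS12 or RPL13, whose log2 fold change was −0.45. The median of the pathway stayed between −0.33 and −0.17 with each library left out. Its genes are short, with a median of 918 bp, and reads of ribosomal proteins can be shared with processed pseudogenes. The process translation, with 198 genes tested, had a median of −0.15 and 144 lower.

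**Figure D4:**
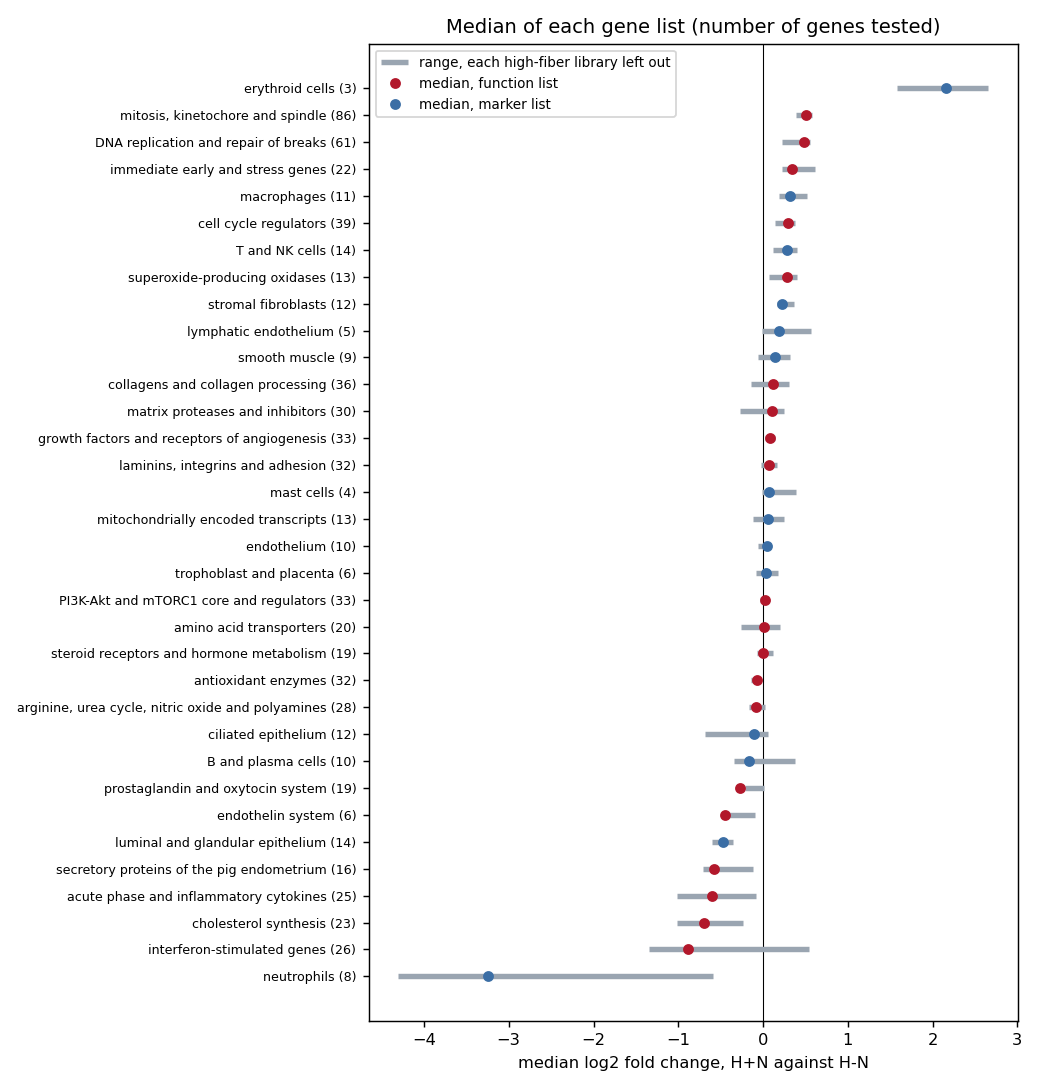
Median log2 fold change of H + N against H − N (x axis) for each gene list (y axis, with the number of genes tested), red for functions and blue for cell type markers, with gray bars for the range when each of the 6 libraries was left out. The bars of mitosis, DNA replication, immediate early and stress genes, and macrophages lie above 0 and that of the epithelium below it. The bar of the interferon-stimulated genes runs from −1.34 to 0.54.

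The endothelin system was represented by 6 genes, 4 of them lower in H + N, with a median log2 fold change of −0.45, which was −0.09 without H − N replicate 1. Beside EDN1, ECE1, the enzyme that releases active endothelin, stood at 221, 238 and 291 CPM in H + N and 298, 257 and 552 CPM in H − N (log2 fold change −0.56). ECE1 was highest in H − N replicate 3, and its log2 fold change was −0.15 without that library, while that of EDN1 stayed between −0.91 and −0.82 with each library left out.

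Genes of arginine metabolism, the route on which NCG acts, showed no common direction. Of 28 genes of the urea cycle, nitric oxide and polyamines, 10 were higher in H + N, the median log2 fold change was −0.08 (−0.17 without H + N replicate 3 and 0.02 without H − N replicate 3), and 1 had an unadjusted p under 0.05. NOS1, a nitric oxide synthase, stood at 33.5, 65.5 and 49.2 CPM in H + N and 86.4, 58.7 and 140.5 CPM in H − N (log2 fold change −0.95, standard error 0.56, and −0.56 without H − N replicate 3), with overlapping groups. GATM, which makes the creatine precursor from arginine, had a log2 fold change of 0.46 (0.21 to 0.78 with each library left out) and OAZ1, the antizyme that limits polyamines, one of −0.22 (−0.34 without H + N replicate 3). Of 20 amino acid transporters 11 were higher, with a median of 0.01 that ran from −0.26 to 0.20 with each library left out. SLC38A1, a glutamine carrier, was lower at 38.6, 41.4 and 32.00 CPM in H + N and 58.1, 50.00 and 81.1 CPM in H − N (log2 fold change −0.75), and SLC38A9, the lysosomal arginine sensor of mTORC1, stood at 54.1, 44.4 and 41.8 CPM in H + N and 30.5, 33.1 and 34.5 CPM in H − N (log2 fold change 0.51). Both had groups without overlap, and SLC38A9 overlaps PLPP1 on the same strand.

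The PI3K-Akt pathway showed no common direction. In the KEGG annotation, 153 of its 289 genes tested were higher in H + N, beside 51% of all genes, and the median log2 fold change was 0.02. An unadjusted p under 0.05 was reached by 10 in the higher direction (5.35% of all genes) and by 11 in the lower (3.32%). Of 33 core kinases and regulators, 17 were higher, with a median of 0.02. PIK3CA, the catalytic subunit, stood at 65.9, 53.1 and 54.9 CPM in H + N and 20.9, 38.1 and 45.5 CPM in H − N (log2 fold change 0.74). RICTOR, of mTORC2, had a log2 fold change of 0.57, and DDIT4, an inhibitor of mTORC1, stood at 56.8, 60.1 and 57.6 CPM in H + N and 69.4, 69.6 and 79.6 CPM in H − N (log2 fold change −0.33). PIK3CA and DDIT4 did not overlap between the groups, and without H − N replicate 1 the log2 fold changes were 0.47 for PIK3CA and 0.29 for RICTOR. PIK3CA overlaps LOC110256340 on the same strand.

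Single genes of vessel growth and of oxidative balance differed without overlap between the groups. Of 33 growth factors and receptors of angiogenesis 20 were higher, with a median of 0.08, and VEGFC, a ligand of lymphatic growth, stood at 25.4, 17.8 and 23.5 CPM in H + N and 14.2, 13.7 and 14.2 CPM in H − N (log2 fold change 0.66). VEGFC was higher in each H + N library. Of 32 antioxidant enzymes 12 were higher, with a median of −0.07 and 2 lower genes at an unadjusted p under 0.05. SOD2, the mitochondrial superoxide dismutase, stood at 47.4, 44.5 and 47.4 CPM in H + N and 62.8, 61.2 and 163 CPM in H − N (log2 fold change −1.04, and −0.42 without H − N replicate 3), and MSRB1, which repairs oxidized methionine, at 19.7, 23.1 and 27.3 CPM in H + N and 33.2, 27.5 and 38.6 CPM in H − N (log2 fold change −0.50). Both were lower in each H + N library. Of 13 superoxide-producing oxidases and subunits 8 were higher, with a median of 0.28 (0.08 without H + N replicate 3) and 3 at an unadjusted p under 0.05. NOX4 stood at 39.9, 25.9 and 18.8 CPM in H + N and 11.5, 18.9 and 14.8 CPM in H − N (log2 fold change 0.91, and 0.56 without H + N replicate 1), and GP91-PHOX, the catalytic subunit in phagocytes, at 40.1, 39.2 and 24.3 CPM in H + N and 17.1, 25.7 and 15.04 CPM in H − N (log2 fold change 0.84). The groups overlapped slightly for these. For NCF4, another phagocyte subunit, the log2 fold change was 0.69, or 0.43 without H + N replicate 2 (PVALB overlaps it on the opposite strand), and the macrophage markers above moved in the same direction, although their part in it was not tested.

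Matrix genes lay on both sides of 0. Of 36 collagens and processing enzymes 22 were higher (median 0.11), and of 30 matrix proteases and inhibitors 16 (median 0.10), of which MMP16 was described above. Without H + N replicate 3 both medians were below 0, at −0.14 with 11 of 36 genes higher and at −0.28 with 13 of 30. MMP7, matrilysin of epithelia, stood at 131, 139.6 and 54.02 CPM in H + N and 319, 131 and 1144 CPM in H − N (log2 fold change −2.29, and −1.06 without H − N replicate 3). MMP13, a collagenase, stood at 0.527, 0.489 and 0.184 CPM in H + N and 4.46, 0.971 and 4.62 CPM in H − N (log2 fold change −3.04), and MMP12, of macrophages, at 0.198, 0.163 and 0.184 CPM in H + N and 0.518, 0.902 and 3.86 CPM in H − N. MMP12 had 3 counts in each H + N library, so no fold is given for it. MMP12 and MMP13 were low in level and did not overlap between the groups. Of 32 laminins, integrins and adhesion genes 20 were higher, with a median of 0.07 (−0.02 without H − N replicate 1), 1 at an unadjusted p under 0.05 in that direction and 5 in the other. ITGA4, an integrin chain of leukocytes and stroma, stood at 31.6, 26.3 and 30.1 CPM in H + N and 6.22, 13.7 and 15.8 CPM in H − N (log2 fold change 1.31), and was lowest in H − N replicate 1. Of 16 secretory proteins of the pig endometrium 5 were higher, with a median of −0.57 (−0.12 without H − N replicate 3), of 19 genes of prostaglandins and oxytocin 8 (median −0.27, and 0.01 without H − N replicate 2), and of 19 of steroid receptors and hormone metabolism 9. Cell adhesion as annotated had 115 of 201 genes higher (median 0.07).

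The study names 18 genes of signaling, matrix and immunity for their correlations with metabolites or serum indicators. It drew their pathways from its comparison of H + N with L − N, which is not the comparison made here. The list was chosen on these samples and is therefore no independent evidence of a direction. Of the 18 genes 11 were higher in H + N than in H − N, with a median of 0.22 (0.01 without H + N replicate 3). An unadjusted p under 0.05 was reached by 2 in that direction and 3 in the other. BRCA1, of double-strand break repair, stood at 25.2, 29.7 and 32.2 CPM in H + N and 16.8, 21.4 and 21.8 CPM in H − N (log2 fold change 0.54), and overlaps NBR1 on the opposite strand. IFNA1 stood at 4.22, 3.97 and 2.15 CPM in H + N and 0.984, 2.08 and 1.03 CPM in H − N (log2 fold change 1.34), and its reads can be shared with other members of the interferon alpha family. LAMB3, a laminin chain of epithelial basement membrane, stood at 14.6, 25.3 and 27.7 CPM in H + N and 39.2, 26.1 and 60.3 CPM in H − N (log2 fold change −0.89, and −0.54 without H − N replicate 3). The groups did not overlap for BRCA1 and IFNA1, whereas LAMB3 overlapped. VEGFA, the main angiogenic factor, stood at 150.1, 71.8 and 216 CPM in H + N and 129, 110.2 and 108 CPM in H − N (log2 fold change 0.33), and COL1A1, a chain of type I collagen, at 10108, 6518 and 15822 CPM in H + N and 7314, 7917 and 14849 CPM in H − N (log2 fold change 0.11). Both varied by more within H + N than between the groups. ITGB8 (log2 fold change 0.06) and PDGFD (log2 fold change −0.11, overlapping DDI1 on the opposite strand) were near 0, FGFR3 and NTRK2 stood at −0.25 and −0.37, and IL4R, the receptor of interleukin 4, at −0.60 on the log2 scale (−0.27 without H − N replicate 3). NTRK2 was at −0.04 without H − N replicate 1. The log2 fold changes of LAMA2, FGF1, COL4A5, TLR2, TNN and GNB3 lay between 0.34 for TLR2 and 0.59 for TNN, with overlapping groups for each. TNN was at 0.08 and LAMA2 at 0.29 without H − N replicate 3, TLR2 at 0.14 and GNB3 at 0.03 without H + N replicate 1, and FGF1 and COL4A5 crossed 0 with 1 library left out.

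The effect of NCG was set beside that on the low-fiber diet, from the other 6 libraries, which share no library with this comparison. L + N against L − N gave 613 called genes (3.99%) in the same model. Of the 821 genes higher in H + N with an unadjusted p under 0.05, 693 (84.4%) were higher in L + N than in L − N as well, against 58.9% of all genes tested with the same sign on both diets, and 260 were called there, 256 of them in the same direction. Of the 510 lower genes 331 (64.9%) were lower on both diets and 6 were called. On the low-fiber diet the median log2 fold change also rose with gene length, from −0.18 in the shortest quintile to 0.15 in the longest. The part of gene length in the agreement between the diets was not tested. Across all genes, which are not independent replicates, Spearman's rho between the effects was 0.195. The mitosis list had a median of 1.37 on the low-fiber diet, with 86 of 86 genes higher, and DNA replication one of 0.70. CEP135 had a log2 fold change of 1.68 (edgeR's adjusted p = 0.00818) on that diet, SMC4 of 2.01 (edgeR's adjusted p = 0.00818) and EDN1 of −1.02 (edgeR's adjusted p = 0.00818).

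The medians of other lists differed in sign between the diets. Markers of macrophages had a median of −0.93 with NCG on low fiber and 0.32 on high fiber. Immediate early and stress genes had −0.27 and 0.34, epithelial markers 0.19 and −0.47, smooth muscle markers −1.503 and 0.14, and lysosomal genes (KEGG) −0.44 and 0.06. The macrophage markers summed to 1689, 1593 and 1187 CPM in L + N and 1412, 3541 and 3650.0 CPM in L − N, so that L − N replicate 1 lay within the L + N range, and with each low-fiber library left out their median ran from −1.13 to −0.66. For smooth muscle it was −0.36 on low fiber without L − N replicate 1 and −0.06 on high fiber without H − N replicate 1. For the immediate early and stress genes it was −0.11 on low fiber without L − N replicate 2, and for the epithelium 0.04 on low fiber without L − N replicate 3. Tested gene by gene, the difference between the effects passed for 0 of 15351 genes (0%) by edgeR's test, 1967 (12.8%) had an unadjusted p under 0.05, 1149 for a higher effect on high fiber (7.48%) and 818 for a lower (5.33%), and DESeq2 called 184. Of the mitosis genes 29 had an unadjusted p under 0.05 for a smaller effect on high fiber and 0 for a larger. Of the 11 macrophage markers 9 had one for a higher effect on high fiber, and of the 22 immediate early and stress genes 6. FOSB had a log2 fold change of 1.86 on high and −0.87 on low fiber, a difference of 2.73 (edgeR's adjusted p = 0.253). NBL1, a BMP antagonist, had the smallest p of the difference, with log2 fold changes of 0.34 and −1.57 (edgeR's adjusted p = 0.182), followed by MAFF with 0.30 and −1.68 and C1QTNF5 with 0.22 and −1.51. In the opposite direction stood BPI, a bactericidal protein, with −0.29 and 3.17, TSPAN8 with 0.12 and 2.92, and DNAAF4 with −0.16 and 1.41 (edgeR's adjusted p of the difference = 0.209 for the 3). For these 6 genes the high-fiber groups overlapped, and the TSPAN8 gene overlaps LGR5 on the opposite strand.

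**Figure D5:**
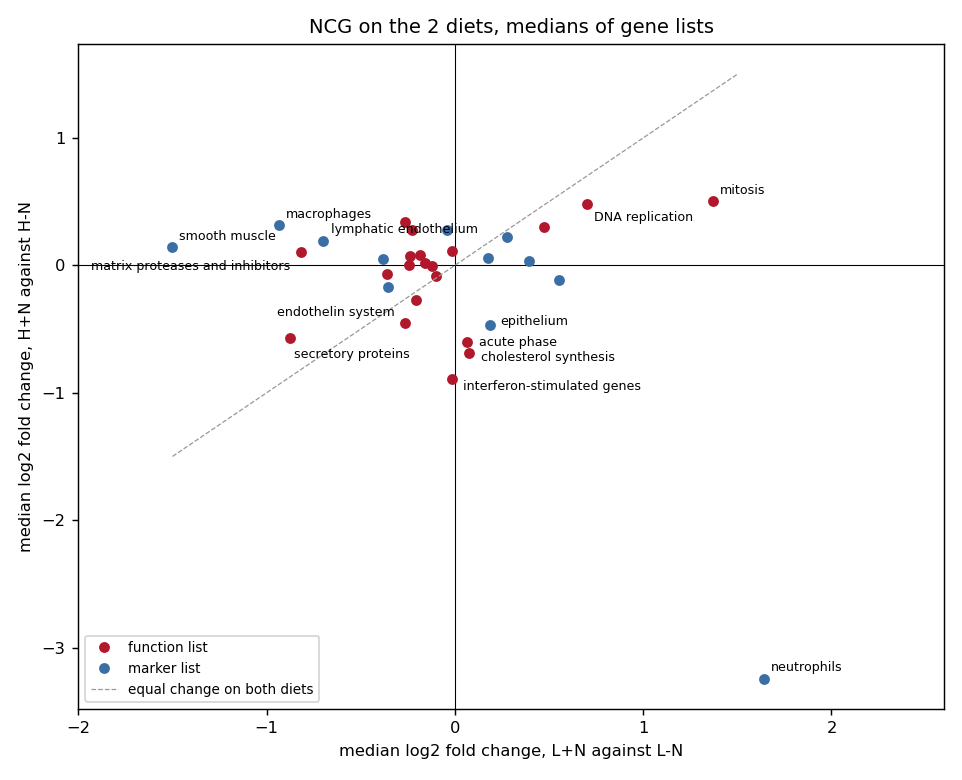
Median log2 fold change of each gene list with at least 5 genes tested for NCG on the low-fiber diet (x axis, L + N against L − N) and on the high-fiber diet (y axis, H + N against H − N), red for functions and blue for cell type markers, with a dashed line where both are equal. Mitosis (1.37 and 0.51) and DNA replication (0.70 and 0.48) lie above 0 on both diets, and macrophages (−0.93 and 0.32) lie below 0 on low and above 0 on high fiber.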

How the data were processed

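Poly(A) RNA of sow endometrium was sequenced on an Illumina platform in 12 libraries, and total counts in the 6 high-fiber libraries ranged from 14369781 to 18549636. Per the submitters' processing notes, the authors trimmed reads with fastp 0.22.0, aligned them with HISAT2 2.1.0 to Sscrofa11.1 and counted them per gene with HTSeq 0.9.1. The strand setting of the counting is not given in the sources used here. The authors deposited raw counts, which were tested, and FPKM values with gene coordinates and KEGG and biological process terms. FPKM recomputed from the counts differed from the deposited FPKM by at most 1.91e-05 percent and was used for nothing else. The coordinates equalled those of RefSeq for 20663 genes.

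Genes were kept by filterByExpr on the 4 groups, libraries were scaled by TMM, and all 12 were fitted with 1 mean per group in edgeR 4.0.16 (limma 3.58.1, R 4.3.3; quasi-likelihood test, Benjamini-Hochberg over 15351 genes). A gene was called at an adjusted p under 0.05 and an absolute log2 fold change above 1, the thresholds that the study used with DESeq2. The biological coefficient of variation was 0.269. DESeq2 1.42.0, other filters and scaling, a replicate block and leaving out each library were alternatives. CPM values are counts relative to TMM-scaled totals. The depth limits the precision of low genes, and the p-values cover the spread between 3 libraries a side.

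Groups were taken from the deposited titles. The comparison, gene lists and alternatives were chosen with earlier results of these data known. Lists and terms are described by counts and medians. Genes were named by rule: the 10 with the smallest p in each direction at 1 CPM or more in the higher group, those named in the study, the 4 with the smallest p in each list or term described, and the 3 with the smallest p in each direction of the difference between diets. EDN1, CEP135, SMC4 and MKI67 were also named outright, and the look at tissue markers gives other members of its lists. Same-numbered libraries of H + N and H − N had correlations of 0.00792, 0.194 and 0.283 of their deviations, so the numbers were not treated as pairs. Promoter sequences were not used here, and some genes that the rule names are not reported here.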

Additional observations from a re-analysis of the deposited data

How the results depend on the processing

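The count of 0 genes called between H + N and H − N stayed 0 under every edgeR alternative tried (6 libraries, RLE scaling, other filters, no limit on the fold change, each library left out). DESeq2 called 25 on 12 libraries and 42 on 6, and the cause was not tested. With the replicate block the count was 0 for this comparison and for the difference between diets, and 1202 genes had an unadjusted p under 0.05. The difference between diets gave 184 genes by DESeq2 and 0 to 346 with each library left out (346 without L − N replicate 1 and 1 without H − N replicate 3). For H + N against H − N, the number with an unadjusted p under 0.05 ranged from 816 to 1706 with each library left out.

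Of 108 genes followed, the direction of all was kept under RLE, no filter and the replicate block, and DESeq2 called 16 of them on 12 libraries and 13 on 6. With each library left out, log2 fold changes crossed 0 for 13 genes, and the cause was not tested: LTF (−5.32 to 0.13), OASL (−3.94 to 1.26), HERC5 (−1.69 to 0.21), VEGFA (−0.0638 to 0.65), FGFR3 (−0.48 to 0.0135), PDGFD (−0.49 to 0.27), ITGB8 (−0.22 to 0.49), COL1A1 (−0.27 to 0.51), FGF1 (−0.0647 to 1.002), COL4A5 (−0.12 to 0.78), MYB (−0.22 to 0.19), BPI (−0.91 to 0.10) and TSPAN8 (−0.23 to 0.36). With 3 libraries a side, differences under the spread between libraries were not detectable.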

Other observations

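Annotated terms outside the lists above were ranked by median log2 fold change, as a description. Of 306 KEGG pathways with 10 to 200 genes tested, 169 had a median above 0. The highest medians were those of Asthma (0.34, 19 genes), Nicotine addiction (0.30), Olfactory transduction (0.27, 53 genes) and the renin-angiotensin system (0.23), and the lowest those of Steroid biosynthesis (−0.36) and Linoleic acid metabolism (−0.30). Of 1567 biological processes, 817 had a median above 0. Antimicrobial humoral response (−0.68), sterol biosynthetic process (−0.53) and leukocyte chemotaxis (−0.48) were among the lowest. Without H − N replicate 3 these 3 medians were 0.09, −0.18 and 0.21, and those of Steroid biosynthesis and Nicotine addiction −0.09 and 0.08. Olfactory transduction was at 0.12 without H + N replicate 1. Renin-angiotensin was at 0.12 without H + N replicate 2, Asthma at 0.21 without H − N replicate 2 and Linoleic acid metabolism at −0.18 without H − N replicate 1. Terms overlap in their genes, and these medians were not tested.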
